A study of Homo sapiens with 4 samples.

Results

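The 10 genes described here make, clear or sense prostaglandins. PLA2G4A, PTGS1, PTGS2, PTGES, PTGES2 and PTGES3 act in synthesis, HPGD in breakdown, and PTGER2, PTGER4 and PTGFR are receptors. They were taken by gene symbol from a table of 61228 genes, and all 10 were found and tested. Counts of RNA-seq reads per gene had been made for 4 libraries from H1792, an established line of human lung cancer cells, labelled as wild type in genotype. Of these, 2 libraries came from cells treated for 96 h with ACBI1 and 2 from cells given DMSO, the solvent control, for the same time. ACBI1 is a PROTAC, which brings the chromatin remodelling ATPases SMARCA2 and SMARCA4, and the related subunit PBRM1, to the VHL ubiquitin ligase for degradation. The dose is written as 1 mM in the labels, which is high for a PROTAC and could not be checked here. Nothing in the labels says that the replicates of a group came from separate cultures, so p-values measure the spread between these libraries, which may be technical.

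Prostaglandins are short-lived lipid signals. A phospholipase such as that encoded by PLA2G4A frees arachidonic acid from membranes, a cyclooxygenase (PTGS1 or PTGS2) turns it into prostaglandin H2, and a terminal synthase turns that into prostaglandin E2, F2alpha, D2, I2 (prostacyclin) or thromboxane. PTGS2, also called COX-2, is the inducible form, switched on by cytokines and growth factors. In lung tumours prostaglandin E2, made from the prostaglandin H2 of either cyclooxygenase, is known for damping immune responses. The products act on G protein-coupled receptors and are inactivated by the enzyme encoded by HPGD.

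Gene counts summed to between 64281850 and 86010100 per library, so that 1 count was worth 0.0112 to 0.0153 CPM (counts scaled to a common library size, with TMM factors). A gene counted as called when its edgeR quasi-likelihood p, adjusted by Benjamini-Hochberg over 19159 tested genes, was under 0.05. Transcripts of the degrader's targets did not pass. SMARCA4 had a log2 change of 0.70 (adjusted p 0.0583), SMARCA2 one of -0.40 (adjusted p 0.163) and PBRM1 one of 0.10 (adjusted p 0.734); since the compound acts on the proteins, transcripts check no label. The 6 epithelial markers summed to 982 and 1035 CPM with DMSO and to 323 and 202 CPM with ACBI1, and 4 of the 5 tested were called lower, all 4 of them keratin genes. EPCAM went the other way, at 5.38 and 2.78 CPM with DMSO and at 15.6 and 4.84 CPM with ACBI1 (log2 change 1.32, not called), and CDH1 had 4 to 16 counts per library. The 5 lung epithelial markers summed to at most 0.334 CPM in any library, and NKX2-1 and SFTPA1 had 0 counts in each, which allows at most 0.0335 to 0.0458 CPM (3 counts, for counting error only). Of 5 fibroblast markers, 5 were tested and 3 were called, each lower, and their summed level was 991 and 1941 CPM with DMSO and 87.5 and 270 CPM with ACBI1. The 4 endothelial markers summed to 12.8 and 49.0 CPM with DMSO and to 0.123 and 0.107 CPM with ACBI1, and 2 of the 3 tested were called lower. Nearly all of the DMSO sum was PECAM1, at 12.2 and 48.1 CPM. With DMSO, CDH5 had 2 and 4 counts, VWF 24 and 23, and KDR 15 and 38, so the sum mostly describes PECAM1. The 5 blood cell markers summed to 0.307 and 0.820 CPM with DMSO and to 0.235 and 0.305 CPM with ACBI1. Only 1 of the 5 was tested, and it was not called. CD3E was at 0 in each library and PTPRC had at most 2 counts. The called keratins, endothelial and fibroblast markers moved in the same direction as several genes below, and their part in those results was not tested. Over all tested genes, 10.6% were called lower. All libraries are labelled as the same established cell line, and whether they hold a mixture of cells was not tested. In bulk RNA, fewer cells holding a transcript and less of it per cell cannot be told apart.

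The sequences just before the starts of the 3 called genes and of PLA2G4A, the neighbour of PTGS2 on chromosome 1, are shown because these genes differed in response. Each holds the 250 bases before the RefSeq start (GRCh38.p14), 5′ to 3′ on the gene's strand. Capitals mark matches on either strand to the letters TATAAA (the TATA box), TGACG (core of the cAMP response element, CRE) and TTGCGNAA (C/EBP site). They also mark TGANTCA (AP-1 site), GGGCGG (GC box) and GGGRNWYYCC (the NF-kB consensus). Here R is A or G, Y is C or T, W is A or T, and N is any base. The intervals are chr1:186680424-186680673 (minus strand) for PTGS2, chr12:56688285-56688534 (minus strand) for PTGES3, chr1:78490724-78490973 (plus strand) for PTGFR and chr1:186828699-186828948 (plus strand) for PLA2G4A.
PTGS2: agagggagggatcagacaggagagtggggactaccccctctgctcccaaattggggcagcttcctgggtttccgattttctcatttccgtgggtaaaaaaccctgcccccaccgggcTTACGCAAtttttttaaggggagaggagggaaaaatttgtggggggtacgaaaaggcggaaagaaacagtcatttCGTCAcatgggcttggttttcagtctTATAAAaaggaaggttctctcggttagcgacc
PTGES3: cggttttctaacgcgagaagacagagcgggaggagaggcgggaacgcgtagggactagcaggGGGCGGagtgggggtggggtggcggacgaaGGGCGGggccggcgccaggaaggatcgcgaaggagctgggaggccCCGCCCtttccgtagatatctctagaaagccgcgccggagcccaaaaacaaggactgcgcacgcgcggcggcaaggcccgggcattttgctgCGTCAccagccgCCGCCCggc
PTGFR: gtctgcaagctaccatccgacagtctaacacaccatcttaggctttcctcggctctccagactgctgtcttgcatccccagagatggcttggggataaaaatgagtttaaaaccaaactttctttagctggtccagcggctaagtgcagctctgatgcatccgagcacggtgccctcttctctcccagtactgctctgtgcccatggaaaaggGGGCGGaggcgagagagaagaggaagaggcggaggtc
PLA2G4A: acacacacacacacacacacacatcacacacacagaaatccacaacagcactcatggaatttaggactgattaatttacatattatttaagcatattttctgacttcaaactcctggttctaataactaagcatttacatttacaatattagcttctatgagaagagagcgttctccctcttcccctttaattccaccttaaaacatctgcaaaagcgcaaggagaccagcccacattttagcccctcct

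Before PTGS2 lay a C/EBP match from 133 to 126 bases upstream of the start, a CRE core from 58 to 54 bases upstream, and a TATA box from 32 to 27 bases upstream. Of 35116 windows of this length, 0.752% held the C/EBP letters, 21.2% the CRE core and 10.7% the TATA box. No other window among the 14 of the 10 genes held the C/EBP letters. The window of PTGES3 was rich in CpG, with 30 against a median of 11 over all windows, and held 4 GC boxes, which 42.6% of windows hold at least once, and a CRE core from 21 to 17 bases upstream. The PTGFR window held 1 GC box and 8 CpG. None of these letters was found before PLA2G4A, whose window held 2 CpG. The NF-kB consensus, present in 5.21% of windows, matched only before PTGER4 among the 14 windows, and AP-1 letters (6.57% of windows) matched in none. Only full matches were counted, and the PTGS2 window holds gggactaccc, which is 1 letter away from the NF-kB consensus. A match is a run of letters, not a measured binding site, and these counts carry no binding data.

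With ACBI1, PTGS2 fell about 10-fold, the receptor gene PTGFR fell to 0.378 of its DMSO level, and PTGES3 rose 1.64-fold. The other 7 genes did not pass the threshold. Calls thus covered 3 of the 10 genes, 1 higher and 2 lower, beside 17.4% of all tested genes (6.75% higher and 10.6% lower). The median log2 change was -0.56 over the 10 genes and 0.01 over all tested genes. In 8 of the 10 the 2 groups did not overlap, as was so for 63.2% of all tested genes. DESeq2 called 5 of the 10, adding PTGS1 and PTGER4, beside 21.5% of the genes it tested.

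**Figure D1:**
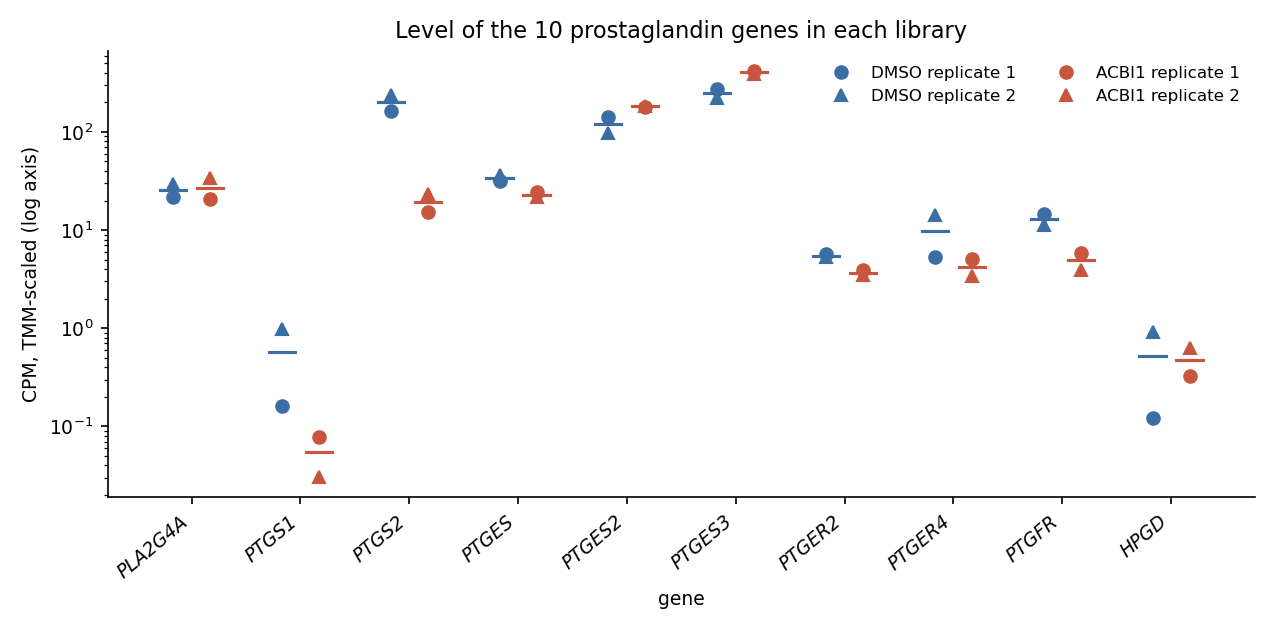
Level of each gene in each library, in CPM scaled by TMM on a log axis; circles are replicate 1, triangles replicate 2, and bars are the means of 2 libraries. PTGS2 separates most widely, from 162 and 237 CPM with DMSO to 15.3 and 23.3 CPM with ACBI1, while PLA2G4A and HPGD overlap between groups.

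PLA2G4A (chr1:186828953-186988981, plus strand, 18 exon blocks in GENCODE 29) encodes cytosolic phospholipase A2, which frees arachidonic acid. It was at 21.5 and 29.4 CPM with DMSO and at 20.6 and 33.6 CPM with ACBI1. The groups overlapped, and replicate 2 was the higher library in both. Its log2 change was 0.09 (SE 0.28, edgeR adjusted p 0.863), with an approximate 95% interval from -0.61 to 0.78. The direction was not stable, since the change was -0.12 without DMSO replicate 1 and -0.32 without ACBI1 replicate 2.

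PTGS1 (chr9:122370530-122395703, plus strand) encodes the constitutive cyclooxygenase and was barely detected. It had 13 and 71 counts with DMSO and 7 and 2 with ACBI1, or 0.160, 0.987, 0.0782 and 0.0305 CPM. DMSO replicate 2 stood above the other 3 libraries. The log2 change of -3.29 (SE 1.02) did not pass (edgeR adjusted p 0.0765), with an interval from -5.78 to -0.80. Without DMSO replicate 2 it was -1.48 (adjusted p 0.422), and without DMSO replicate 1 it was -4.08 and was called (adjusted p 0.00159).

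PTGS2 (chr1:186671791-186680427, minus strand) had 13200 and 17076 counts with DMSO and 1367 and 1530 with ACBI1. This is 162 and 237 CPM (mean 200 ± 53.2, SD, n = 2) against 15.3 and 23.3 CPM (mean 19.3 ± 5.70, SD, n = 2). The lowest DMSO library was far above the highest ACBI1 library. The log2 change was -3.37 (SE 0.30, edgeR adjusted p 0.00305), with an interval from -4.11 to -2.64. It was called with each library left out in turn, where the log2 change lay between -3.72 and -3.08. Of the 10 genes it was the only one called in all 4 of these fits.

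Per kilobase of exon, PTGS2 was the third highest of the 10 genes with DMSO, at 37.9 CPM per kb, and the fifth with ACBI1, at 3.66 CPM per kb. Among the tested genes that had an exonic length, it moved from the 94.5th percentile to the 55.9th. Even so it remained the main cyclooxygenase transcript in each library. The ratio of PTGS2 to PTGS1 per kb was 1120 and 264 in the DMSO libraries and 215 and 841 in the ACBI1 libraries, which overlap, and the PTGS1 side rested on as few as 2 counts. Among 11160 genes averaging 5 CPM or more, the 3 whose log2 CPM, centred over the 4 libraries, lay closest to that of PTGS2 were GALNT5 (distance 0.134), ITGB8 (0.208) and NEDD9 (0.243). With 4 libraries this likeness describes a shared fall and little more.

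Of the 5 tested genes that start within 500 kb of PTGS2 on chromosome 1, PTGS2 included, only PTGS2 was called. PLA2G4A starts 148.5 kb away, on the opposite strand, and the ratio of PTGS2 to PLA2G4A per kb was 4.11 and 4.40 with DMSO and 0.405 and 0.379 with ACBI1. The 2 groups of ratios did not overlap, though with 2 against 2 libraries an exact permutation test cannot go below p = 0.333. PACERR, a long noncoding RNA that starts 0.195 kb upstream of PTGS2 on the other strand and is known as a partner in PTGS2 expression, had 65 and 65 counts with DMSO and 15 and 31 with ACBI1. The log2 change, -1.43 (SE 0.56), missed the threshold (edgeR adjusted p 0.133), and the exons of PACERR and PTGS2 do not overlap in the annotation. TPR and ODR4, a divergent pair that starts at -304.7 and -304.6 kb from the start of PTGS2, had log2 changes of 0.39 (adjusted p 0.186) and -0.15 (adjusted p 0.546). Of 14 annotated genes starting within 500 kb, 5 were tested and 1, PTGS2, was called, beside 17.4% called over all tested genes. With so few tested genes at that share, the lack of another call says little about the neighbourhood.

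**Figure D2:**
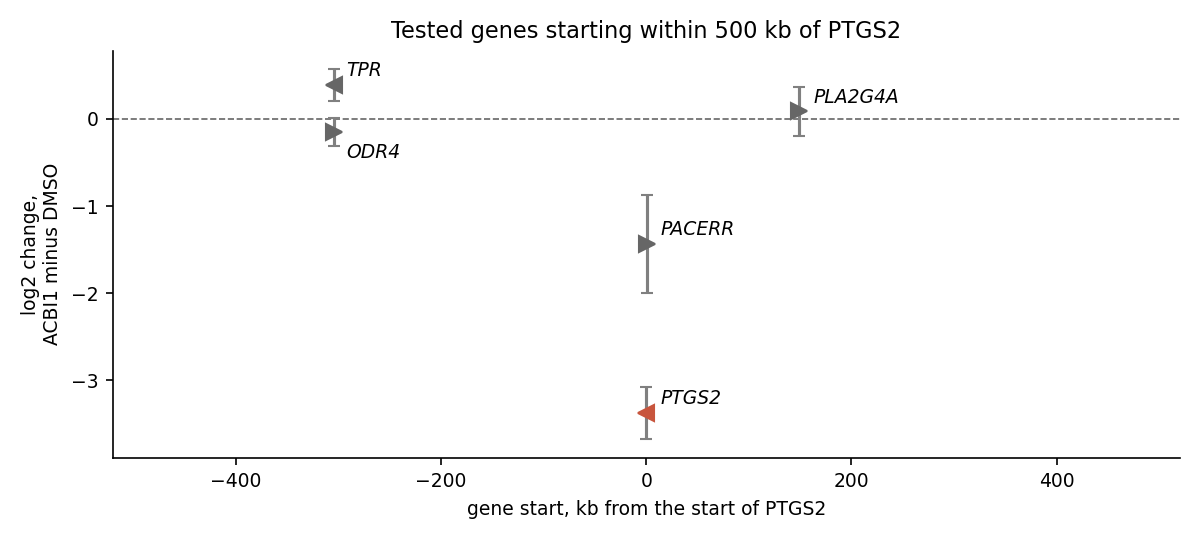
Log2 change with ACBI1 (points, with SE bars) of the 5 tested genes that start within 500 kb of PTGS2, by distance of their starts in kb; right-pointing marks are plus-strand genes, and the coloured mark is called. PTGS2 lies at -3.37 and PACERR, next to it, at -1.43, while TPR, ODR4 and PLA2G4A lie between -0.15 and 0.39.

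PTGES (chr9:129738331-129753047, minus strand) encodes the microsomal prostaglandin E synthase, the inducible enzyme usually coupled to PTGS2. It was at 31.3 and 36.1 CPM with DMSO and at 24.5 and 21.6 CPM with ACBI1. The groups did not overlap, yet the log2 change of -0.55 (SE 0.17) did not pass (edgeR adjusted p 0.0788), and its interval ran from -0.97 to -0.13 before any adjustment for many genes. The ratio of PTGES to PTGS2 per kb, which did not overlap between groups, was 0.536 and 0.422 with DMSO and 4.45 and 2.57 with ACBI1.

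PTGES2 (chr9:128120693-128128462, minus strand), a membrane-associated E synthase, was at 141 and 98.0 CPM with DMSO and at 179 and 185 CPM with ACBI1. Both ACBI1 libraries were higher, by a log2 change of 0.61 (SE 0.21) that did not pass (edgeR adjusted p 0.104). It was called without DMSO replicate 1, at 0.90 (adjusted p 0.0180), and had 0.36 (adjusted p 0.380) without DMSO replicate 2.

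PTGES3 (chr12:56663341-56688408, minus strand) encodes p23, a co-chaperone of HSP90 that was also described as a cytosolic E synthase. It was at 274 and 220 CPM with DMSO and at 417 and 391 CPM with ACBI1. The groups did not overlap, and the log2 change of 0.71 (SE 0.18) was called just inside the threshold (edgeR adjusted p 0.0480). The call was lost without ACBI1 replicate 1 (0.67, adjusted p 0.197), without ACBI1 replicate 2 (0.75, adjusted p 0.140) and without DMSO replicate 2 (0.56, adjusted p 0.158). Of 9 HSP90 partners of p23, 2 were called, both higher, beside 17.4% called and 6.75% called higher over all tested genes: the peptidyl-prolyl isomerase genes FKBP5 (log2 change 0.94, SE 0.23, adjusted p 0.0432) and PPID (0.83, SE 0.17, adjusted p 0.0262). PPID shares 19.5% of its exonic length with a gene on the other strand, and each of the 2 was called in 1 of the 4 fits with a library left out.

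Among the transcripts of the 3 E synthases, PTGES made up 11.5% and 16.4% per kb with DMSO and 6.63% and 6.08% with ACBI1. PTGES3 made up 56.1% and 55.8% with DMSO and 63.0% and 61.4% with ACBI1. Neither pair of shares overlapped between groups, whereas the share of PTGES2, from 27.8% to 32.5%, did. These are shares of RNA per length, not of enzyme activity.

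PTGFR (chr1:78303884-78539749, plus strand; the RefSeq start used above lies inside this span), the receptor for prostaglandin F2alpha, which signals through Gq and calcium, was at 14.6 and 11.4 CPM with DMSO and at 5.90 and 3.91 CPM with ACBI1. Both ACBI1 libraries were below both DMSO libraries. Its log2 change was -1.40 (SE 0.30, edgeR adjusted p 0.0285), with an interval from -2.13 to -0.67. Without ACBI1 replicate 2 the log2 change was -1.15 and was not called (adjusted p 0.0997); the other 3 fits with a library left out called it.

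PTGER4 (chr5:40679498-40693735, plus strand) encodes EP4, a receptor for prostaglandin E2 that raises cAMP through Gs. It was at 5.33 and 14.1 CPM with DMSO and at 5.11 and 3.40 CPM with ACBI1, so that DMSO replicate 2 stood apart and DMSO replicate 1 was close to ACBI1 replicate 1. The log2 change of -1.19 (SE 0.49) did not pass (edgeR adjusted p 0.151). It was -0.33 (adjusted p 0.694) without DMSO replicate 2 and was called without DMSO replicate 1 (-1.72, adjusted p 0.00368). The groups of 2 libraries differed by less than the gap between the DMSO replicates.

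PTGER2 (chr14:52314305-52328606, plus strand) encodes EP2, the other Gs-coupled receptor for prostaglandin E2. It was at 5.66 and 5.30 CPM with DMSO and at 3.90 and 3.46 CPM with ACBI1. The replicates were close and the groups did not overlap, but the log2 change of -0.57 (SE 0.27) did not pass (edgeR adjusted p 0.194). None of the 4 fits with a library left out called it, with adjusted p from 0.374 to 0.487.

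The order of the receptors per kb shifted. With DMSO the means were 2.75 CPM per kb for PTGFR, 2.46 for PTGER4 and 2.22 for PTGER2, and with ACBI1 they were 1.04, 1.07 and 1.49. Levels of PTGER4 overlapped those of both other receptors with DMSO, so the DMSO order is not resolved beyond the spread. In the ACBI1 libraries PTGER2 was at 1.58 and 1.40 CPM per kb, above the highest PTGFR value of 1.25 and the highest PTGER4 value of 1.29. The ratio of PTGFR to PTGER2 went from 1.35 and 1.13 with DMSO to 0.794 and 0.592 with ACBI1.

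HPGD (chr4:174490177-174523154, minus strand) encodes 15-hydroxyprostaglandin dehydrogenase, which starts the breakdown of prostaglandins. It had 10 and 66 counts with DMSO and 29 and 41 with ACBI1, or 0.123, 0.917, 0.324 and 0.625 CPM. The 2 DMSO libraries enclosed the ACBI1 libraries. The log2 change of -0.13 (SE 0.88, edgeR adjusted p 0.933) had an interval from -2.28 to 2.01 and spanned changes in both directions.

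**Figure D3:**
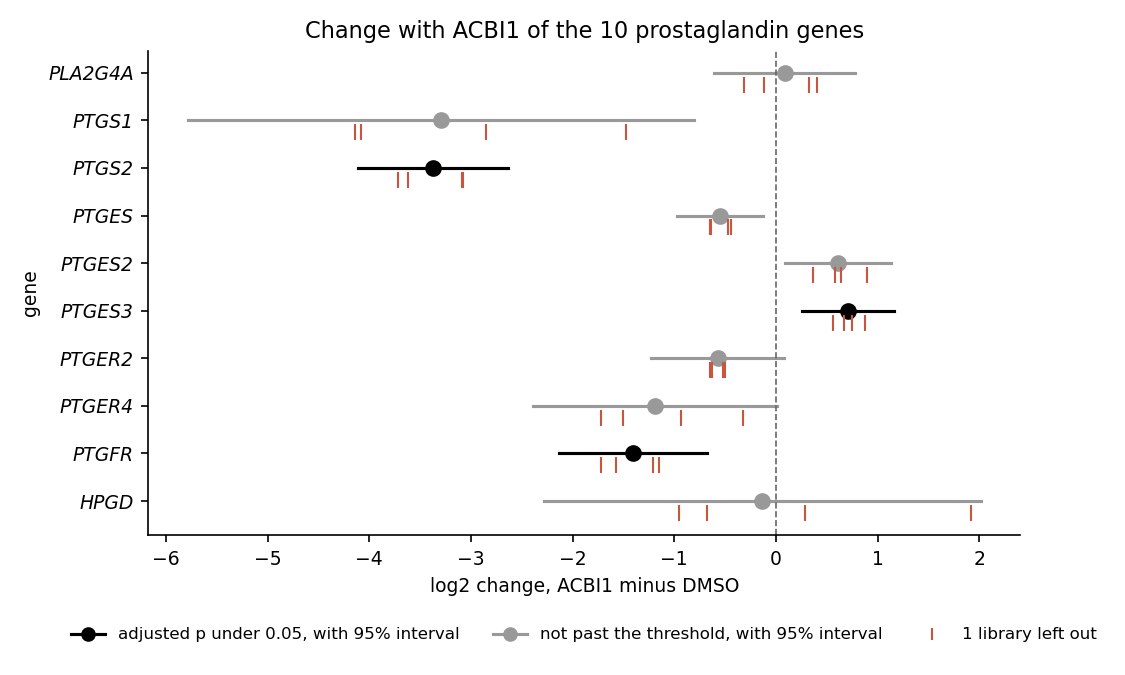
Log2 change with ACBI1 of the 10 genes (points) with approximate 95% intervals from the fit on 4 libraries; black marks genes with an adjusted p under 0.05, and small ticks give the change with 1 library left out. PTGS2 stays between -3.72 and -3.08 with a library left out, whereas HPGD runs from -0.96 to 1.92 and PTGS1 from -4.14 to -1.48.

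Ordered per kb with DMSO, the 10 genes ran from PTGES3 (72.7 CPM per kb), PTGES2 (39.3) and PTGS2 (37.9) through PTGES (17.8), PLA2G4A (8.87), PTGFR, PTGER4 and PTGER2 to PTGS1 (0.0990) and HPGD (0.0941). PTGES2 (46.4 and 32.2 CPM per kb) and PTGS2 (30.8 and 45.1) overlapped, as did PTGS1 and HPGD. With ACBI1 the order was PTGES3 (119), PTGES2 (59.9), PTGES (12.1), PLA2G4A (9.42), PTGS2 (3.66), PTGER2, PTGER4, PTGFR, HPGD (0.0858) and PTGS1 (0.00938). PTGS2 thus passed below PTGES and PLA2G4A, with 2.90 and 4.43 CPM per kb against a lowest value of 7.16 for PLA2G4A.

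Beyond the E synthases, enzymes that finish other prostanoids included 3 that fell. Of 8 genes, 6 were tested and 3 were called, each lower, beside 17.4% called and 10.6% called lower over all tested genes. The list median log2 change was -1.56. AKR1C3, an aldo-keto reductase that makes prostaglandin F2alpha, was at 218 and 477 CPM with DMSO and at 13.3 and 39.0 CPM with ACBI1, a log2 change of -3.73 (SE 0.62, edgeR adjusted p 0.0145). PTGIS, the prostacyclin synthase, was at 71.0 and 297 CPM with DMSO and at 21.3 and 13.7 CPM with ACBI1. Its log2 change was -3.39 (SE 0.67, adjusted p 0.0234). AKR1B1, another aldo-keto reductase that can make prostaglandin F2alpha, had a log2 change of -2.94 (SE 0.58, adjusted p 0.0233). DMSO replicate 2 was the highest library for all 3. Without it the log2 change was -3.06 for AKR1C3, -2.03 for PTGIS and -1.78 for AKR1B1, each still called, while without ACBI1 replicate 1 AKR1B1 was not called (adjusted p 0.0669) and without ACBI1 replicate 2 PTGIS was not (adjusted p 0.0510).

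The receptor for prostacyclin fell together with its synthase. PTGIR had 72 and 129 counts with DMSO and 3 and 5 with ACBI1, a log2 change of -4.62 (SE 0.65, edgeR adjusted p 0.00940), and was called with each library left out, between -5.26 and -4.03. It was the only one called of 3 tested genes among 6 other prostanoid receptors, and the level was low, at most 1.79 CPM. Over all tested genes, 17.4% were called and 10.6% called lower, and a list with so few tested genes cannot be set against those shares. Transport and later breakdown had 5 tested genes of 8 and 1 call, beside the same shares over all tested genes. The called gene was the prostaglandin carrier SLCO2A1, which fell from 99 and 127 counts to 27 and 14 (log2 change -2.51, SE 0.43, edgeR adjusted p 0.0161). That call was lost without ACBI1 replicate 2 (adjusted p 0.0563).

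Of 19 genes that release or recycle arachidonic acid, 14 were tested and 2 were called, both lower, a share near the 17.4% called and 10.6% called lower over all tested genes. MGLL, the lipase that makes arachidonic acid from an endocannabinoid, had 245 and 183 counts with DMSO and 42 and 9 with ACBI1 (log2 change -3.16, SE 0.59, edgeR adjusted p 0.0198); with a library left out it ran from -4.31 to -2.57 and was called each time. The phospholipase gene PLA2G4C had a log2 change of -1.65 (SE 0.35, adjusted p 0.0285) and was called only without DMSO replicate 1 among the 4 fits with a library left out. Reads of PLA2G4C can be shared with an antisense gene over 4.93% of its exonic length. In the lipoxygenase, leukotriene and epoxide branches 13 of 25 genes were tested and 2 were called lower, again near those shares over all genes. ALOX5AP, which presents arachidonic acid to 5-lipoxygenase, had 119 and 49 counts with DMSO and 1 and 0 with ACBI1. The log2 change was -7.07 (SE 0.90, edgeR adjusted p 0.00733). Taken apart from that fit, the ratio of DMSO to ACBI1 from summed counts (168 against 1), scaled to library size, was 170. Its 95% exact interval of 30.1 to 6750 covers counting error and not the spread between libraries. MGST2, a glutathione transferase that can make leukotriene C4, had a log2 change of -1.28 (SE 0.27, adjusted p 0.0286), was called in 1 of the 4 fits with a library left out, and shares 7.92% of its exonic length with MAML3.

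Several genes that induce PTGS2 or bind its promoter fell, in a list drawn up with earlier results of these data known. Of 18, all tested, 9 were called lower and none higher, beside 10.6% lower among all genes, and the list median log2 change was -0.83. Of the 18, 14 had a log2 change below 0, and the genes outside the 9 were not called. The largest falls were those of IL1B, IL1A and TNF, cytokines known to switch on PTGS2. Their log2 changes were -13.57, -7.73 and -3.95 (edgeR adjusted p 0.00126, 0.00141 and 0.00361), the first resting on 5 and 1 counts with ACBI1. The part of these genes in the fall of PTGS2 was not tested. The count of calls was 4 without ACBI1 replicate 1. Proteins that bind AU-rich elements, which control the stability of PTGS2 mRNA, had 9 tested genes of 10. None was called with edgeR's quasi-likelihood test or with DESeq2, beside 17.4% and 21.5% of the genes each tested. With edgeR, 2 had an unadjusted p under 0.05, and the replicate block called 6, beside 41.3% of all tested genes. So short a list cannot be set against these shares, and mRNA stability was not tested. A list of 14 genes known to respond to cAMP, the messenger raised by EP2 and EP4, had a median log2 change of -0.92. Over all tested genes, 17.4% were called and 10.6% called lower. Of the 14, 3 were called lower and none higher. These were RGS2, a brake on Gq signalling (-2.18, SE 0.38, adjusted p 0.0161), PDE4B, which degrades cAMP (-1.58, SE 0.37, adjusted p 0.0374), and the nuclear receptor gene NR4A2 (-1.40, SE 0.26, adjusted p 0.0206). The count was 7 without DMSO replicate 1 and 1 without ACBI1 replicate 1.

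**Figure D4:**
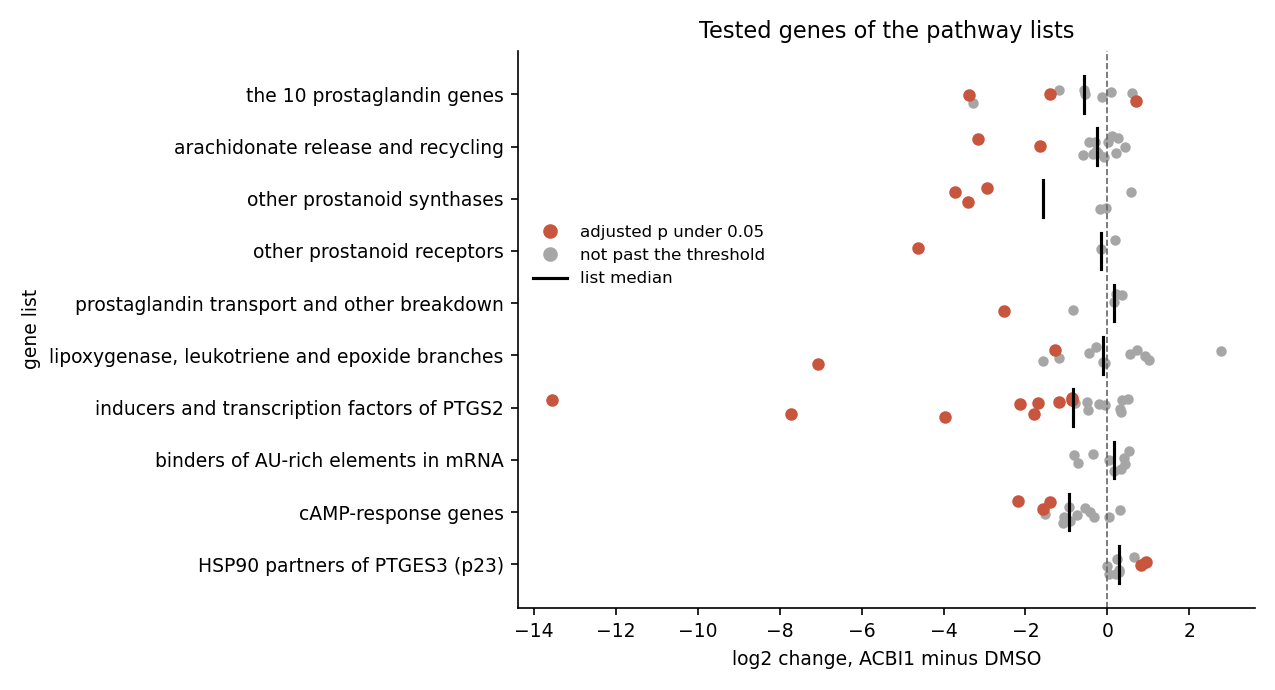
Log2 change with ACBI1 of each tested gene, by list; coloured points have an edgeR adjusted p under 0.05, grey points do not, and black bars are list medians. Called genes lie to the left of 0 in every list with a call except the HSP90 partners of p23 and the 10 prostaglandin genes, in which PTGES3 lies to the right.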

How the data were processed

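The authors deposited raw counts of reads per gene symbol for 4 libraries, in the layout of htseq-count. TopHat2 2.1.1, HTSeq 0.11.0 and hg38 are named in the submitters' processing notes, and the annotation and strand setting are not given in the sources used here. The 5 lines for reads given to no gene were left out, and reads in genes made up 84.6% to 86.1%. Groups and replicate numbers came from the titles. Genes were kept by filterByExpr in edgeR 4.0.16 (minimum count 10, minimum total 15), scaled by TMM and tested for treatment with glmQLFit and glmQLFTest in R 4.3.3, two-sided. The SE is the log2 change over the square root of F. The test was tested on simulated data. Alternatives were other scalings, filters, DESeq2 1.42.0, limma-voom (limma 3.58.1), a replicate block, a threshold of 0.01 and each library left out, where the lone library is assumed to vary like the others. Lengths and positions came from GENCODE 29 (GRCh38), matched for 95.8% of tested genes, and promoter windows from RefSeq, matched for all 10 genes. The 10 genes and the lists were chosen with earlier results of these data known. Named genes were all 10, at most 3 called genes per list with the largest change, the 3 genes nearest PTGS2 in profile, and the tested genes within 500 kb of PTGS2, a window set after values were seen.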

Additional observations from a re-analysis of the deposited data

How the results depend on the processing

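PTGS2 was called lower under every alternative tried, PTGFR under all but the threshold of 0.01 and the fit without ACBI1 replicate 2, and PTGES3 higher under the 7 other scalings, filters and tools that kept the threshold. Genes called over all genes numbered 5518 with every gene that had a count, 783 at a threshold of 0.01, 7909 with the replicate block, and 1379 to 4292 with 1 library left out, against 3331. Of the 10 prostaglandin genes, 5 were called with DESeq2, beside 21.5% of the genes it tested. The replicate block called 7, beside 41.3% of all genes, adding PTGS1, PTGES, PTGES2 and PTGER4 to the main calls. At 0.01, 1 was called, beside 783 of 19159 genes. With every gene that had a count, 6 were called, and no share over all genes was worked out for that filter. Replicate numbers share only a number in the labels: deviations of same-numbered libraries from their group means had a correlation of 0.612 over 11160 genes, and no pairing was assumed. HPGD changed sign with the replicate block (0.22), limma-voom (0.41), without DMSO replicate 2 (1.92) and without ACBI1 replicate 1 (0.29; range -0.96 to 1.92 with 1 library left out), and PLA2G4A without DMSO replicate 1 (-0.12) and without ACBI1 replicate 2 (-0.32). The other 347 of 353 single-gene values kept their direction. The causes were not tested.

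Counts of calls in the lists moved as follows, and are to be read beside the counts over all genes above. The filter at a mean of 5 CPM called 2555 over all genes. With a filter at a mean of 5 CPM, release and recycling had 0, other receptors 0, transport 0 and lipoxygenase branches 1. With every gene that had a count, transport had 3, lipoxygenase branches 5, AU-rich binders 2 and cAMP-response genes 8. With the replicate block, release had 6, transport 2, lipoxygenase branches 7, AU-rich binders 6 and cAMP-response genes 10. DESeq2 gave 2 for transport, 5 for lipoxygenase branches and 5 for cAMP-response genes. At 0.01, release, other synthases, transport, cAMP-response genes and HSP90 partners had 0, lipoxygenase branches 1 and PTGS2 inducers 3. With 1 library left out, the ranges were 1 to 2 for release, 0 to 2 for transport, 1 to 3 for lipoxygenase branches, 4 to 10 for inducers, 0 to 2 for AU-rich binders, 1 to 7 for cAMP-response genes and 0 to 3 for HSP90 partners. HPGD and PTGS1 had few counts (at most 66 and 71 in a library) and DMSO replicates that differed, with 10 against 66 and 13 against 71 counts; the part of each in their wide intervals was not tested.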
